A study of Homo sapiens with 20 samples.

Results

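SPARC, fibronectin (FN1) and 8 other genes of the non-collagen extracellular matrix and of fibroblasts were followed in orthotopic OVCAR8 tumors from mice given PBS or sodium gluconate. The 10 genes were SPARC, FN1, TNC, THBS1, FBN1, POSTN, LUM, DCN, PDGFRB and FAP, and all 10 were among the 24196 genes of the expression table. They were chosen by symbol after earlier results of the same libraries were known, that is, selected on the gluconate and PBS values described here, with and without PBS replicate 4. Their differences between the groups are therefore given as a description and support no statement on gluconate.

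OVCAR8 is a human cell line of high-grade serous ovarian cancer. Cells carrying the non-targeting guide and luciferase (OVCAR8-sgNC-luc) were placed in the fat pad of the ovary of NSG mice aged 6 weeks, which lack functional T, B and NK cells but keep their own fibroblasts and vessels. Treatment lasted 35 days, with an intraperitoneal dose each week, which was 1 mg/kg sodium gluconate in the treated group and PBS in the control group. Gene expression was measured by polyA RNA-seq in 4 PBS and 4 gluconate tumors, while the 12 libraries of cultured knockout and control cells of the same series were not analysed here. The sample labels name tumors and the study's text speaks of treated cells, and the labels were followed. Each library was taken as 1 tumor, as its title names it. If some were not separate animals, the p-values measure only the spread between libraries.

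Extracellular matrix outside the collagens is built from large adhesive glycoproteins, fibril-forming scaffolds, small proteoglycans and matricellular proteins, which sit in the matrix and tune how cells attach to it. In many solid tumors fibroblasts and pericytes produce most of this material, and PDGFRB and FAP are used as surface markers of those cells. Ovarian cancer cells with mesenchymal features can also produce fibronectin, SPARC and thrombospondin themselves.

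PBS replicate 4 stood apart from the other 7 libraries in measures taken over all genes. Whole fragments recovered from the steps of the FPKM values gave 3953205 fragments for this library against 39325736 to 46551520 for the other 7, and 15514 genes above 0 against 19991 to 20251. Its Pearson correlation with the other libraries was 0.938 to 0.951 on the log2(FPKM + 0.1) scale across genes, which are not independent replicates, whereas the lowest value among the other 7 was 0.980. Every comparison was made with all 8 libraries and again without PBS replicate 4. The low member values of this library were known when the members were chosen. Low depth widens the counting error of a value, and the part it played in the levels of this library was not tested.

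The tumor libraries carried the genes of the cell line at high levels. VIM, an intermediate filament of mesenchymal cells, averaged 1676 FPKM. The keratin KRT8 lay between 700 and 1051 FPKM, and PAX8, a transcription factor of Müllerian epithelium, lay between 32.4 and 50.7 FPKM in the 8 libraries. The list of epithelial and OVCAR8 tumor markers, which also holds the mesenchymal genes VIM and CDH2, summed to 3472, 3589, 3521 and 3964 FPKM in the PBS tumors (replicates 1 to 4), and its sum was 3537, 3286, 3418 and 3872 FPKM in the gluconate tumors in the same numbering. VIM alone gave 1206 FPKM of the sum in PBS replicate 3 and 2082 FPKM in PBS replicate 4, its lowest and highest levels. The epithelial adhesion gene CDH1 did not exceed 0.159 FPKM, and MUC16 was at 0 in 6 of the 8 libraries.

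The name stromal did not hold for the measured transcripts as a group. Of 20 fibroblast and mural cell markers, 13 passed the filter of a mean of 0.5 FPKM and 6 stayed under 0.5 FPKM in every library. FN1 was the most abundant, with a mean of 720 FPKM, and COL1A1 lay between 41.4 and 182 FPKM. The partner chain of COL1A1 in type I collagen, COL1A2, did not exceed 0.0678 FPKM. PDGFRA, a receptor that defines many fibroblasts, did not exceed 0.0136 FPKM, and the fibroblast surface protein THY1 did not exceed 0.125 FPKM. PDGFRA was at 0 in 4 of the 8 libraries, POSTN in 3 and COL1A2 in 1, and the shallow PBS replicate 4 was among them for each. The 10 genes are accordingly called here by their leading genes, SPARC and FN1, and not by a cell type. Whether mouse-derived fragments were removed before the values were made is not given in the sources used here, so what share of the host's stroma the values hold was not tested.

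**Figure D1:**
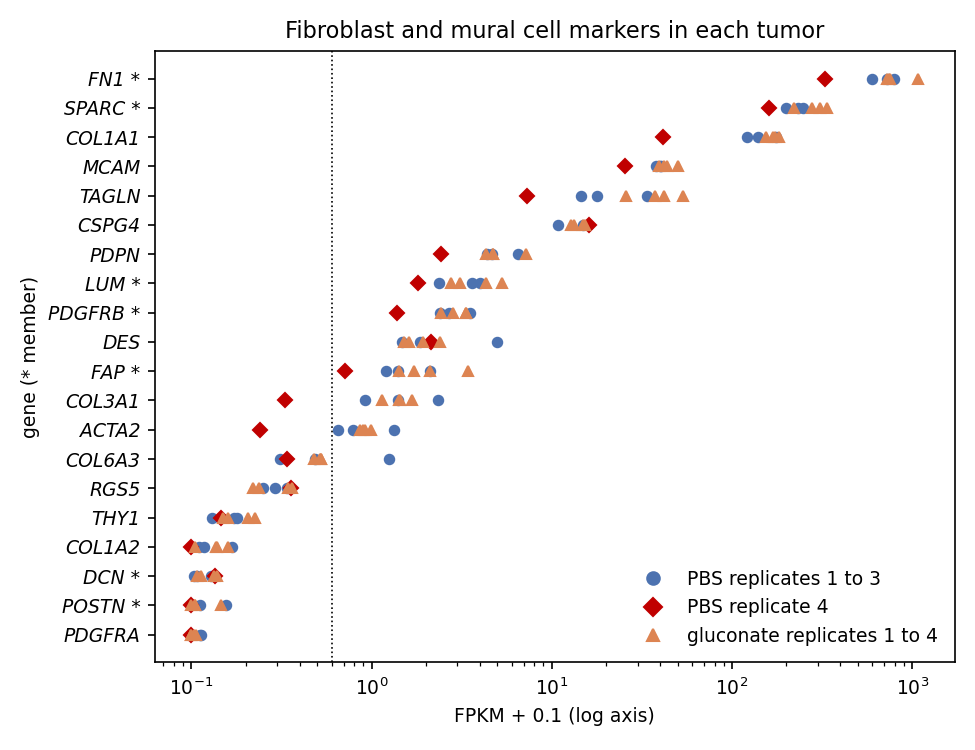
FPKM + 0.1 on a log axis for the 20 fibroblast and mural cell markers, 1 point per tumor, ordered by mean FPKM; asterisks mark members and the dotted line marks 0.5 FPKM. FN1, SPARC and COL1A1 lie far to the right, while PDGFRA, POSTN, DCN, COL1A2, THY1 and RGS5 lie left of the line in all 8 tumors.

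The plot of marker levels shows the same list from SPARC and FN1 down to PDGFRA, whose 8 points lie at the left edge of the axis. The summed level of the list was 1188, 1309, 1020 and 590 FPKM in PBS replicates 1 to 4 and 1229, 1302, 1690 and 1376 FPKM in gluconate replicates 1 to 4. PBS replicate 4 was lowest for 11 of the 13 tested markers, beside 58.0% of all 12486 tested genes, and CSPG4, a pericyte proteoglycan, was an exception at 16.0 FPKM, its highest value of the 8 libraries. Of the 13, 5 were members, chosen with their low values in that library known. FN1 gave 330 FPKM and SPARC 161 FPKM of the sum of 590 FPKM, so count and sum partly restate that choice. In bulk tumor RNA, fewer cells of a type and less RNA per cell cannot be told apart, and this applies to every level reported here.

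Ordered by mean FPKM over the 8 libraries, FN1 led (rank 87 of 24196 genes), followed by SPARC (rank 209), THBS1 (rank 686), TNC (rank 2185) and FBN1 (rank 4417). LUM (rank 8302), PDGFRB (rank 8882) and FAP (rank 10027) lay lower, and DCN (rank 18383) and POSTN (rank 18922) were near 0. FPKM is scaled by gene length, so these levels can be set beside each other. Between neighbours in this order, the ranges over the 8 libraries were separate only for SPARC above THBS1, THBS1 above TNC and FAP above DCN. The order of FN1 above SPARC held within 8 of 8 libraries, although the lowest FN1 value, 330 FPKM in PBS replicate 4, was under the highest SPARC value, 338 FPKM in gluconate replicate 4. The order of LUM and PDGFRB held within 5 of 8 libraries, that of PDGFRB and FAP within 7, and that of DCN and POSTN within 5. Together the 10 genes took 0.815%, 0.872%, 0.667% and 0.394% of fragments in PBS replicates 1 to 4 and 0.845%, 0.844%, 1.16% and 0.903% in gluconate replicates 1 to 4.

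**Figure D2:**
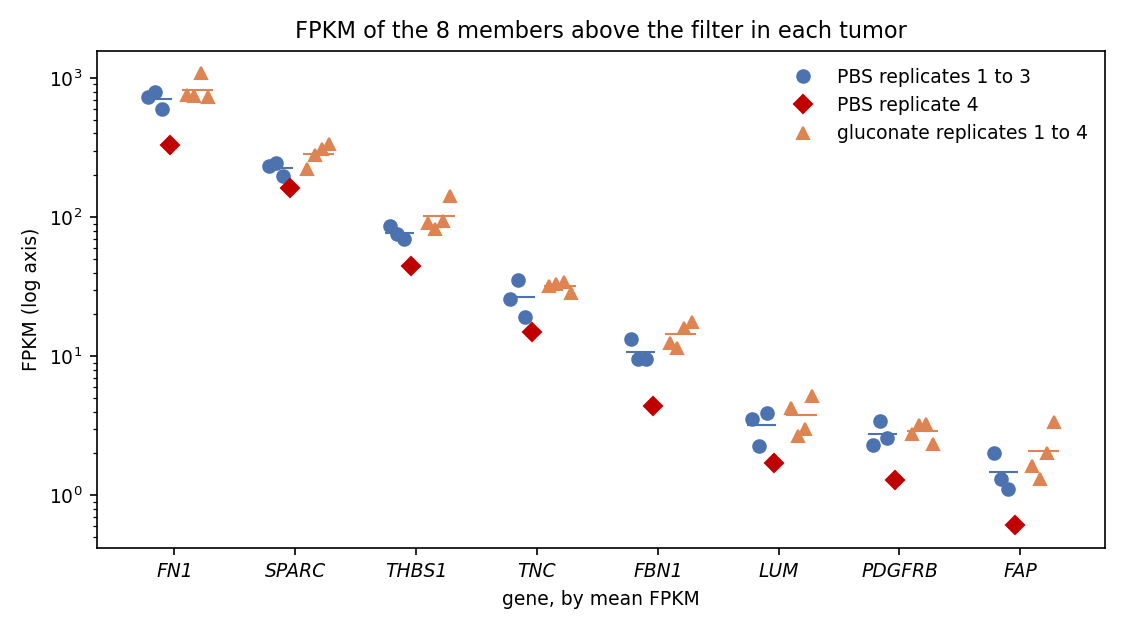
FPKM on a log axis of the 8 members that passed the filter, 1 point per tumor, with PBS replicate 4 as a diamond; bars are the mean of PBS replicates 1 to 3 and of the 4 gluconate tumors. The diamond is the lowest point of all 8 members, and the remaining PBS and gluconate points of each member overlap.

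SPARC, a matricellular glycoprotein that binds collagen and calcium, is encoded on the minus strand at chr5:151661096-151687165 (GRCh38, GENCODE 29). Its level was 233, 247, 198 and 161 FPKM in PBS replicates 1 to 4. The gluconate tumors, replicates 1 to 4, had 222, 278, 309 and 338 FPKM. Gluconate replicates 2, 3 and 4 lay above every PBS library, whereas gluconate replicate 1 lay inside the PBS range, so the groups overlapped. The means were 210 ± 38.5 FPKM in PBS (SD, n = 4), 226 ± 25.3 FPKM in PBS without replicate 4 (SD, n = 3) and 287 ± 49.4 FPKM in gluconate (SD, n = 4). The log2 fold change of gluconate against PBS was 0.45 (95% interval 0.09 to 0.81) with all libraries and 0.33 (95% interval 0.03 to 0.64) without PBS replicate 4.

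The 250 bases before the annotated start of transcription were examined for SPARC and the other members in the RefSeq promoter table (GRCh38.p14), in which 7 of the 10 members had an entry; LUM, DCN and FAP did not. The motifs were chosen after the values were seen, and both strands were searched. The core GGAATG bound by TEAD factors, the DNA-binding partners of YAP and TAZ, occurred in 3 of the 7 members, SPARC, THBS1 and FBN1, and in 11.9% of 35114 promoters of that length. These 3 are shown because they hold the core, which is in capitals, and nothing is read from which members hold it. A match is a description of the letters and not evidence of a bound site. The SPARC stretch is the last 30 bases before the start at chr5:151686916-151686945 on the minus strand, with the core on the opposite strand 17 to 12 bases before the start (CATTCC), inside an exon of a longer annotated SPARC transcript. The THBS1 stretch is chr15:39580829-39581078 on the plus strand, with the core 46 to 41 bases before the start and no annotated gene over it. The FBN1 stretch is chr15:48644971-48645220 on the minus strand, with the core 58 to 53 bases before the start, within the annotated bounds of FBN1 but in none of its exons.
SPARC: ctaaacccctccaCATTCCcgcggtccttc
THBS1: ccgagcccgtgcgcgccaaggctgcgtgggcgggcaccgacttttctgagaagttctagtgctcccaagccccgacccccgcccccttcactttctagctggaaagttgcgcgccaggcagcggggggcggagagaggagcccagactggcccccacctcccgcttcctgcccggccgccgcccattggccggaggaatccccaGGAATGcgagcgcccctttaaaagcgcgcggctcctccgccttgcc
FBN1: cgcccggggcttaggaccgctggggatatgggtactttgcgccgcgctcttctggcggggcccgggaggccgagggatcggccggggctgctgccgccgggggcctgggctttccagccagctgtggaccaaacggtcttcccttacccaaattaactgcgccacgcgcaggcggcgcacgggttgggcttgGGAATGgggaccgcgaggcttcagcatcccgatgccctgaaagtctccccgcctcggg

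The AP-1 motif TGANTCA was found in 1 of the 7 members, POSTN, and in 6.57% of promoters. The letters TATAAA were also found in POSTN alone among the members and in 10.7% of promoters. The CArG box, the motif of serum response factor, was found in 0 of the 7 and in 1.16% of promoters.

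THBS1, thrombospondin 1, is a matricellular protein that binds CD36 and CD47 and activates latent TGF-beta, and its gene lies at chr15:39581079-39599466 on the plus strand. Its level was 86.1, 75.9, 69.3 and 44.7 FPKM in PBS replicates 1 to 4. Gluconate replicates 1 to 4 gave 91.5, 82.8, 93.3 and 142 FPKM. Gluconate replicate 4 was the highest library, gluconate replicates 1 and 3 lay just above the PBS range, and gluconate replicate 2 lay inside it. The means were 69.0 ± 17.6 FPKM in PBS (SD, n = 4), 77.1 ± 8.50 FPKM without PBS replicate 4 (SD, n = 3) and 102 ± 26.9 FPKM in gluconate (SD, n = 4). On the log2 scale the fold change was 0.58 (95% interval 0.08 to 1.07) with all libraries and 0.38 (95% interval 0.01 to 0.75) without PBS replicate 4.

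TNC, tenascin-C, an anti-adhesive glycoprotein of wounds and tumor matrix, is encoded at chr9:115019578-115118257 on the minus strand. Its level was 26.0, 35.1, 19.0 and 15.1 FPKM in PBS replicates 1 to 4. After gluconate, replicates 1 to 4 held 32.0, 33.3, 34.5 and 28.5 FPKM. The gluconate libraries lay close together and all lay under PBS replicate 2. The means were 23.8 ± 8.81 FPKM in PBS (SD, n = 4), 26.7 ± 8.09 FPKM without PBS replicate 4 (SD, n = 3) and 32.0 ± 2.58 FPKM in gluconate (SD, n = 4). The log2 fold change was 0.50 (95% interval -0.01 to 1.00) with all libraries and 0.30 (95% interval -0.08 to 0.68) without PBS replicate 4. Leaving out 1 further library in the latter fit moved TNC from 0.08 without PBS replicate 3 to 0.52 without PBS replicate 2, where it passed an unadjusted p of 0.05. With PBS replicate 4 kept, TNC had 0.71 without PBS replicate 2 and also passed. With all libraries TNC newly passed with median-ratio scaling, at 0.43 (limma unadjusted p = 0.0499), and with the replicate block (limma unadjusted p = 0.0289).

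POSTN, periostin, the remaining matricellular member, was near the detection limit. The recovered fragments were 0, 11, 2 and 0 in PBS replicates 1 to 4 and 8, 1, 0 and 1 in gluconate replicates 1 to 4. A count of 0 allows up to 0.0156 FPKM in PBS replicate 1, 0.179 FPKM in PBS replicate 4 and 0.0180 FPKM in gluconate replicate 3, each the FPKM of 3 fragments, a one-sided limit that is tighter than a two-sided interval and covers counting error only. A difference between the groups was not detectable at this depth.

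FN1, fibronectin, the adhesive glycoprotein that integrins assemble into fibrils, lies at chr2:215360440-215436172 on the minus strand. Its level was 728, 793, 599 and 330 FPKM in PBS replicates 1 to 4. The gluconate tumors, replicates 1 to 4, had 757, 742, 1082 and 728 FPKM. Gluconate replicate 3 stood above all other libraries, and the other 3 gluconate values lay within the PBS range. The means were 612 ± 205 FPKM in PBS (SD, n = 4), 707 ± 99.1 FPKM without PBS replicate 4 (SD, n = 3) and 827 ± 170 FPKM in gluconate (SD, n = 4). On the log2 scale the fold change was 0.49 (95% interval -0.09 to 1.07) with all libraries and 0.22 (95% interval -0.12 to 0.55) without PBS replicate 4. FN1 passed an unadjusted p of 0.05 only without PBS replicate 2 in the fits that left out 1 of the 8 libraries, with 0.64. Starting without PBS replicate 4, FN1 had 0.08 without gluconate replicate 3 and 0.30 without PBS replicate 2.

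FBN1, fibrillin 1, the backbone of microfibrils, is encoded at chr15:48408306-48645849 on the minus strand. Its level was 13.4, 9.54, 9.52 and 4.42 FPKM in PBS replicates 1 to 4. Gluconate replicates 1 to 4 gave 12.5, 11.5, 16.0 and 17.5 FPKM. Gluconate replicates 3 and 4 exceeded every PBS library, and gluconate replicates 1 and 2 lay under PBS replicate 1. The means were 9.22 ± 3.68 FPKM in PBS (SD, n = 4), 10.8 ± 2.23 FPKM without PBS replicate 4 (SD, n = 3) and 14.4 ± 2.84 FPKM in gluconate (SD, n = 4). The log2 fold change was 0.72 (95% interval 0.05 to 1.39) with all libraries and 0.41 (95% interval 0.03 to 0.78) without PBS replicate 4.

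LUM and DCN encode lumican and decorin, small leucine-rich proteoglycans that bind collagen fibrils. They are neighbouring coding genes on the minus strand of chromosome 12, with LUM at chr12:91102629-91111831, DCN at chr12:91140484-91183123 and 28653 bases between them. Despite this position their levels differed widely. LUM was 3.52, 2.27, 3.89 and 1.70 FPKM in PBS replicates 1 to 4. In gluconate replicates 1 to 4 LUM was 4.22, 2.68, 2.99 and 5.18 FPKM. Gluconate replicates 1 and 4 exceeded the PBS range, and the other gluconate libraries lay inside it. DCN had 9, 1, 2 and 1 fragments in PBS replicates 1 to 4 and 11, 4, 2 and 10 in gluconate replicates 1 to 4, which corresponds to 0.00306 to 0.0388 FPKM. A group difference of DCN was not detectable at this depth.

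The means of LUM were 2.85 ± 1.03 FPKM in PBS (SD, n = 4), 3.23 ± 0.852 FPKM without PBS replicate 4 (SD, n = 3) and 3.77 ± 1.16 FPKM in gluconate (SD, n = 4). Its log2 fold change was 0.42 (95% interval -0.23 to 1.07) with all libraries and 0.20 (95% interval -0.34 to 0.75) without PBS replicate 4. Without PBS replicates 2 and 4 the LUM difference was -0.02.

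PDGFRB, the receptor through which PDGF-BB acts on pericytes and fibroblasts, is on chromosome 5 like SPARC, with 1505 kb between them. Its level was 2.29, 3.41, 2.57 and 1.28 FPKM in PBS replicates 1 to 4. After gluconate, replicates 1 to 4 held 2.75, 3.23, 3.24 and 2.33 FPKM. All gluconate values lay inside the PBS range. On the log2 scale the fold change was 0.33 (95% interval -0.26 to 0.92) with all libraries and 0.07 (95% interval -0.29 to 0.43) without PBS replicate 4. Without PBS replicates 1 and 4 the PDGFRB difference was -0.05.

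FAP, fibroblast activation protein, a membrane serine protease that cleaves denatured collagen, was the lowest member above the filter. Its level was 2.01, 1.31, 1.11 and 0.609 FPKM in PBS replicates 1 to 4. The gluconate tumors, replicates 1 to 4, had 1.62, 1.31, 2.01 and 3.34 FPKM. Gluconate replicate 4 stood clearly above the rest, gluconate replicate 3 was barely above PBS replicate 1, and the other gluconate libraries lay inside the PBS range. The log2 fold change was 0.70 (95% interval -0.11 to 1.51) with all libraries and 0.42 (95% interval -0.23 to 1.08) without PBS replicate 4. Of the fits that left out 1 of the 8 libraries, FAP passed an unadjusted p of 0.05 without PBS replicate 1, with 0.95, and without gluconate replicate 2, with 0.88. Starting without PBS replicate 4, FAP had 0.17 without gluconate replicate 4 and 0.65 without PBS replicate 1.

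Of the 10 members, 8 passed the filter and entered the limma fit over 12486 genes, and POSTN and DCN did not. With all 8 libraries, 3 of the 8 tested members, SPARC, THBS1 and FBN1, had an unadjusted p under 0.05 with a higher level after gluconate, and 0 had one with a lower level. Over all genes, 391 (3.13%) were higher and 186 (1.49%) were lower. After Benjamini-Hochberg adjustment over all genes in limma, 0 genes were under 0.05 against 577 unadjusted, and the adjusted p of all 8 members was 0.740. The split of the calls moved with the scaling between libraries, to 368 higher and 350 lower with median-ratio scaling and 430 higher and 353 lower with quantile normalization. Without gluconate replicate 4, 0 members passed, and without gluconate replicate 3, 1 did.

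Without PBS replicate 4, the same 3 members, SPARC, THBS1 and FBN1, were higher at an unadjusted p under 0.05 and 0 were lower. Over all genes, 353 (2.83%) were higher and 419 (3.36%) were lower. In limma, 0 genes had an adjusted p under 0.05 against 772 unadjusted, and the adjusted p was 0.802 for SPARC, THBS1 and FBN1. The gluconate values lay wholly above PBS replicates 1 to 3 for 0 of the 8 members and for 301 of 12486 genes (2.41%). Because the members were selected on this contrast, nothing is read from their counts.

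**Figure D3:**
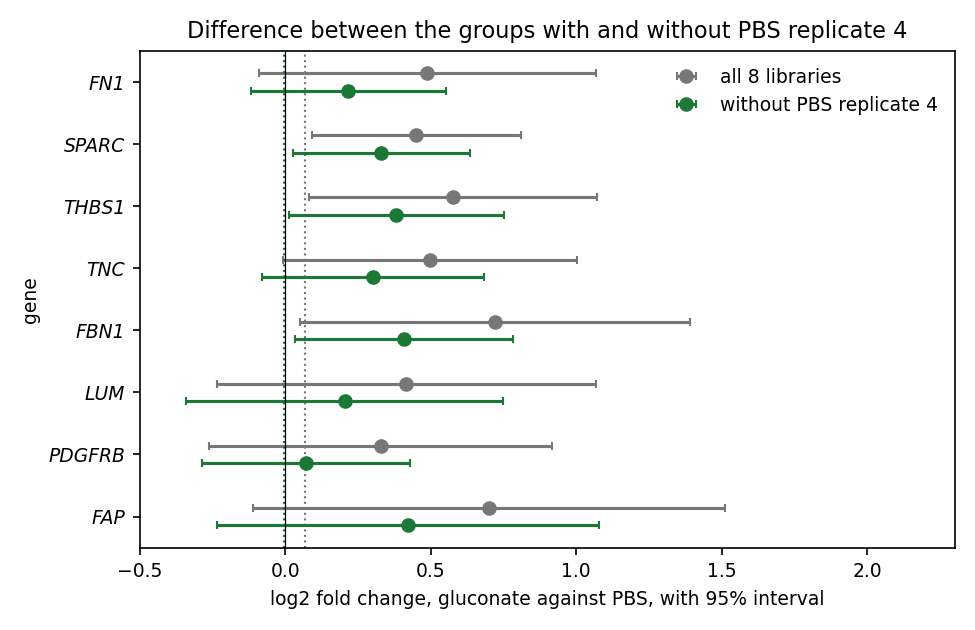
Log2 fold change of gluconate against PBS with its 95% interval from limma for the 8 tested members, with all 8 libraries (gray) and without PBS replicate 4 (green); dotted lines mark the medians of all tested genes. All 8 estimates lie nearer to 0 without PBS replicate 4, and the intervals of SPARC, THBS1 and FBN1 alone lie above 0 in both.

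The plot of fold changes sets both estimates beside each other, and the fits share 7 libraries. The median log2 fold change of the 8 tested members was 0.49 with all libraries, beside 0.07 for all 12486 genes. Without PBS replicate 4 it was 0.32, beside -0.0033 for all genes. The share of all tested genes with a fold change above 0 was 66.4% with all libraries and 48.9% without PBS replicate 4.

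The calls of SPARC, THBS1 and FBN1 varied with the processing and with the libraries kept. With all libraries, the replicate block ended those of THBS1 and FBN1, with p up to 0.0663 in limma. Without PBS replicate 4, all of these calls ended with no filter, with p up to 0.0682 in limma. In that set quantile normalization also ended the SPARC call. The block there ended those of SPARC and FBN1, with p up to 0.0967 in limma. In the fits that left out 1 of the 8 libraries, THBS1 passed in 7 and was lost without gluconate replicate 4, with p up to 0.0759 in limma. SPARC passed in 6 of 8 and was lost without gluconate replicate 3 or 4, with p up to 0.0582 in limma. FBN1 passed in 4 of 8 and was lost without PBS replicate 2 or 3 or gluconate replicate 3 or 4, with p up to 0.0960 in limma. THBS1 had a log2 fold change of 0.38 to 0.70 in these fits, SPARC of 0.33 to 0.57 and FBN1 of 0.41 to 0.93. Starting without PBS replicate 4, SPARC passed in 2 of 7 fits that left out 1 further library and was lost without PBS replicate 1 or 3 or gluconate replicate 2, 3 or 4, with p up to 0.130 in limma. THBS1 passed in 4 of 7 and was lost without PBS replicate 2 or 3 or gluconate replicate 3, with p up to 0.124 in limma. FBN1 passed in 3 of 7 and was lost without PBS replicate 2 or 3 or gluconate replicate 3 or 4, with p up to 0.122 in limma. SPARC kept a log2 fold change of 0.24 to 0.45 in the latter fits, THBS1 of 0.21 (without gluconate replicate 4) to 0.47 and FBN1 of 0.31 to 0.57.

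PBS replicate 4 held the lowest of the 8 values for all 8 tested members, and for 58.0% of all tested genes. SPARC had 2200 fragments there, which gives 161 FPKM with a 95% Poisson interval of 155 to 168 FPKM. FN1 had 11172 fragments, with an interval of 324 to 336 FPKM. Poisson intervals cover counting error only. The upper bound lay under the lowest value of the other 7 libraries for 7 of the 8 members and for 27.5% of tested genes. LUM was the exception, with 18 fragments and an interval of 1.01 to 2.69 FPKM that reached the values of other libraries.

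Set against the median of PBS replicates 1 to 3 on the log2(FPKM + 0.1) scale, FN1 was lowest of the members in PBS replicate 4, at -1.14. FBN1 was at -1.09, LUM at -1.005, FAP at -0.99 and PDGFRB at -0.96. TNC was at -0.78, THBS1 at -0.76 and SPARC at -0.53. The median was -0.97 for the 8 members and -0.28 for all tested genes, with 7.20% of genes below FN1 and 28.8% below SPARC. The members were chosen with the low values of this library known, so the size of the shift is a description.

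**Figure D4:**
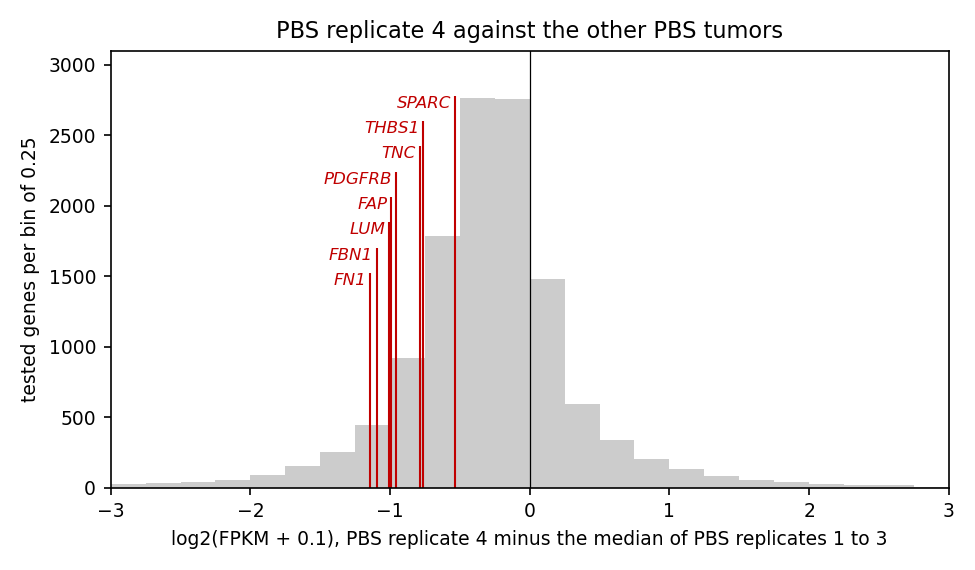
Number of tested genes by their log2(FPKM + 0.1) in PBS replicate 4 minus the median of PBS replicates 1 to 3 (gray bars, genes outside -3 to 3 not drawn), with the 8 tested members as red lines. The members lie between -1.14 (FN1) and -0.53 (SPARC), left of the median of all genes at -0.28.

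In the plot of this shift the members occupy the left shoulder of the distribution, with SPARC nearest to the bulk of genes. The related matrix glycoproteins had a median shift of -0.32 in PBS replicate 4, with 6 of 26 tested genes above the median of PBS replicates 1 to 3 and 15 at their lowest of the 8 libraries, beside 58.0% of all tested genes. The shift of the 7 tested matrix proteoglycans had a median of -0.72, with 1 gene above. Single genes of the glycoprotein list, chosen after their values were seen, were high there: IGFBP7, a secreted matrix protein, was 24.8 FPKM and did not exceed 3.27 FPKM elsewhere, and the basement membrane gene NID2 was 51.9 FPKM against at most 40.6 FPKM. Among the 7 libraries left after PBS replicate 4 was set aside, PBS replicate 3 was lowest for 6 of the 8 members and for 25.7% of genes. Gluconate replicate 4 was highest for 5 of the 8 members and for 16.6% of genes. For SPARC, THBS1, FBN1 and FAP the lowest of the 7 values was in PBS replicate 3 and the highest in gluconate replicate 4.

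Over the 8 libraries, the Pearson correlation of each member with SPARC was 0.887 for THBS1, 0.876 for FBN1, 0.860 for FAP, 0.805 for FN1, 0.781 for TNC, 0.644 for PDGFRB and 0.497 for LUM. Over the 7 libraries without PBS replicate 4 it was 0.773 for THBS1, 0.772 for FBN1, 0.729 for FAP, 0.582 for FN1, 0.551 for TNC, 0.130 for PDGFRB and 0.0586 for LUM. The libraries share their group and depth with both genes of a pair, and the values are descriptions. PDGFRB and LUM followed SPARC little once PBS replicate 4 was left out.

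Among 11130 other genes with a mean of at least 1 FPKM, the 5 most like SPARC over the 8 libraries were YIF1A (r = 0.986), PARP12 (r = 0.985), TGIF1 (r = 0.982), BACE1 (r = 0.979) and TGFB1I1 (r = 0.977). Over the 7 libraries they were NCSTN (r = 0.990), SLC35C1 (r = 0.986), TGIF1 (r = 0.984), C11orf24 (r = 0.980) and YIF1A (r = 0.980). TGIF1, a transcriptional repressor, and YIF1A, a protein of transport between endoplasmic reticulum and Golgi, were in both sets. None of the other members was among them. TGIF1 averaged 10.6 FPKM and YIF1A 60.8 FPKM.

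Beyond the members, 5 lists of related genes were examined, and none of their genes passed an adjusted p of 0.05 in limma. Of 39 other matrix glycoproteins in the table, 26 were tested, and 6 were higher and 0 lower at an unadjusted p under 0.05, both with all libraries and without PBS replicate 4. Over all tested genes, 3.13% were higher and 1.49% lower with all libraries, and 2.83% and 3.36% without PBS replicate 4. These shares apply to each of the 5 lists. The lists were chosen with earlier results of these libraries known, so their counts are a description and support no statement on gluconate. The median log2 fold change of the 26 was 0.28 with all libraries and 0.17 without PBS replicate 4.

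EFEMP2, fibulin-4, which is needed for elastic fibers and for the activity of LOX, was 30.2, 32.7, 21.1 and 27.2 FPKM in PBS replicates 1 to 4. In gluconate replicates 1 to 4 EFEMP2 was 36.5, 36.9, 38.4 and 45.9 FPKM. Every gluconate library lay above every PBS library. Without PBS replicate 4 this held for 2.41% of all tested genes, and the share with all 8 libraries is not given here. The log2 fold change of EFEMP2 was 0.52 with all libraries and 0.51 without PBS replicate 4 (limma unadjusted p = 0.00561, adjusted p = 0.802). In the latter set it passed in 7 of 7 fits that left out 1 further library, with 0.32 when PBS replicate 3 was also left out.

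EFEMP1, fibulin-3, was 35.6, 23.2, 18.9 and 5.97 FPKM in PBS replicates 1 to 4. In gluconate replicates 1 to 4 EFEMP1 was 39.4, 32.5, 37.8 and 58.0 FPKM. Gluconate replicate 2 lay under PBS replicate 1, so the groups overlapped. EFEMP1 had a log2 fold change of 1.22 with all libraries and 0.71 without PBS replicate 4 (limma unadjusted p = 0.0115, adjusted p = 0.802). Without PBS replicate 4 it passed in 7 of 7 fits that left out 1 further library. From all 8 libraries it passed in 7 of 8 and was lost without gluconate replicate 4, with p up to 0.0715 in limma.

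TGFBI, a TGF-beta induced adhesion protein, had a log2 fold change of 0.88 with all libraries and 0.50 without PBS replicate 4. From all 8 libraries its call was lost in 4 of 8 fits, without PBS replicate 3 or gluconate replicate 1, 3 or 4, with p up to 0.0921 in limma. The call without PBS replicate 4 was lost without PBS replicate 3 or gluconate replicate 3 or 4 as well, with p up to 0.115 in limma and a value of 0.33 without PBS replicates 3 and 4. MFAP2, a microfibril protein that binds fibrillins, had 0.52 with all libraries and 0.45 without PBS replicate 4, where it lost its call without PBS replicate 2 or 3, with p up to 0.0820 in limma. THBS3, a thrombospondin, had 0.34 and 0.28 and lost its call in the latter set without PBS replicate 3, with p up to 0.0693 in limma. With a replicate block, TGFBI did not pass in either set and THBS3 did not pass without PBS replicate 4, with p up to 0.0709 in limma. CCN1, a matricellular protein and the most abundant of the list with a mean of 225 FPKM, had a log2 fold change of 0.20 with all libraries, 0.05 without PBS replicate 4 and -0.08 when PBS replicate 1 was left out as well.

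Of 20 matrix proteoglycans in the table, 7 were tested, and 1 was higher and 0 lower in both fits, with a median log2 fold change of 0.46 with all libraries and 0.17 without PBS replicate 4. The gene was SPOCK1, testican-1, a secreted proteoglycan with a SPARC-like domain. Over all tested genes, 3.13% were higher and 1.49% lower with all libraries, and 2.83% and 3.36% without PBS replicate 4. SPOCK1 was 17.6, 8.72, 6.88 and 9.23 FPKM in PBS replicates 1 to 4 and 14.1, 14.6, 16.0 and 20.0 FPKM in gluconate replicates 1 to 4. PBS replicate 1 lay above 3 of the gluconate libraries. Its log2 fold change was 0.68 with all libraries, a call lost without PBS replicate 2 or 3 or gluconate replicate 4 with p up to 0.0696 in limma. Without PBS replicate 4 it was 0.65, and the call was lost in 5 of 7 fits that left out PBS replicate 2 or 3 or gluconate replicate 2, 3 or 4, with p up to 0.153 in limma. The value was 1.04 without PBS replicate 1 as well and 0.37 without PBS replicate 3 as well. In that set SPOCK1 also missed the threshold with no filter and with a replicate block, with p up to 0.0614 in limma. Biglycan (BGN), the most abundant proteoglycan with a mean of 70.5 FPKM, had 0.41 with all libraries and 0.12 without PBS replicate 4. The latter value was 0.0049 without PBS replicate 3 as well and 0.31 without PBS replicate 2 as well, where BGN passed an unadjusted p of 0.05. With PBS replicate 4 kept, BGN had 0.63 without PBS replicate 2 and also passed.

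All 21 matrix cross-linking and maturation enzymes were in the table and 18 were tested. With all libraries 3 were higher and 0 lower, and without PBS replicate 4 3 were higher and 1 lower, with medians of 0.19 and 0.11 on the log2 scale. The shares over all tested genes were 3.13% higher and 1.49% lower with all libraries, and 2.83% and 3.36% without PBS replicate 4. LOX, the lysyl oxidase that cross-links collagen and elastin, was 7.94, 9.81, 6.24 and 7.59 FPKM in PBS replicates 1 to 4 and 10.3, 11.1, 10.5 and 12.0 FPKM in gluconate replicates 1 to 4. The LOX groups did not overlap with all 8 libraries. Without PBS replicate 4, gluconate lay wholly above PBS for 2.41% of all tested genes. The log2 fold change of LOX was 0.48 with all libraries and 0.47 without PBS replicate 4 (limma unadjusted p = 0.00600, adjusted p = 0.802).

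CTHRC1, a secreted protein of collagen remodelling, was 23.5, 19.6, 14.7 and 15.1 FPKM in PBS replicates 1 to 4 and 23.2, 25.2, 28.9 and 31.0 FPKM in gluconate replicates 1 to 4. Gluconate replicate 1 lay just under PBS replicate 1. The log2 fold change of CTHRC1 was 0.59 with all libraries and 0.51 without PBS replicate 4. LOXL2, another lysyl oxidase, was 6.63, 7.15, 5.52 and 11.2 FPKM in PBS replicates 1 to 4 and 9.18, 7.48, 8.33 and 8.29 FPKM in gluconate replicates 1 to 4. PBS replicate 4 held the highest LOXL2 value of the 8 libraries, and the log2 fold change was 0.17 with it and 0.37 without it. Leaving out 1 of the 8 libraries took the LOXL2 value as low as 0.03. With all libraries LOXL2 newly passed with weighting by depth (limma unadjusted p = 0.0443). Starting without PBS replicate 4, LOX, CTHRC1 and LOXL2 each passed in 7 of 7 fits that left out 1 further library, and LOX had 0.31 and CTHRC1 0.33 without PBS replicates 3 and 4. Starting from all 8 libraries, LOX and CTHRC1 passed in 8 of 8 such fits and LOXL2 in 1, the fit without PBS replicate 4. The enzyme called with all libraries beside LOX and CTHRC1 was P4HA2, a collagen prolyl hydroxylase, with a log2 fold change of 0.27 with all libraries and 0.24 without PBS replicate 4. The P4HA2 call ended without PBS replicate 4 (limma unadjusted p = 0.0684, against 0.0469 with all libraries).

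TGM2, the tissue transglutaminase, was the enzyme lower in gluconate tumors, at -0.34 without PBS replicate 4 and -0.25 with all libraries. Its call was lost without PBS replicate 2 or 3 or gluconate replicate 1 or 4, with p up to 0.112 in limma, and the value was -0.52 without PBS replicates 1 and 4 and -0.17 without PBS replicates 3 and 4. From all libraries, TGM2 lay between -0.34 and -0.10 in the fits that left out 1 library. It newly passed there with median-ratio scaling (limma unadjusted p = 0.0410). SERPINH1, the collagen chaperone HSP47 and the most abundant of the list with a mean of 161 FPKM, had 0.46 with all libraries and 0.25 without PBS replicate 4. The latter value was 0.046 without PBS replicate 3 as well and 0.47 without PBS replicate 2 as well, where SERPINH1 passed an unadjusted p of 0.05. With PBS replicate 4 kept, SERPINH1 had 0.67 without PBS replicate 2 and also passed.

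Of the 6 PDGF ligands and receptors beside PDGFRB, 5 were tested and 0 passed in either direction, with medians of 0.39 with all libraries and 0.21 without PBS replicate 4. PDGFA, the most abundant with a mean of 8.27 FPKM, had a log2 fold change of 0.39 with all libraries and 0.35 without PBS replicate 4. Leaving out 1 library moved the former to between 0.23 and 0.49. The latter lay between 0.11 and 0.48 when 1 further library was left out. Its receptor PDGFRA was at or near 0, as given above.

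Of 17 receptors and partners of the member proteins in the table, 13 were tested, and 3 were higher and 0 lower in both fits, with medians of 0.10 with all libraries and 0.06 without PBS replicate 4. The 3 were integrin chains that bind fibronectin or other matrix ligands. The shares over all tested genes were 3.13% higher and 1.49% lower with all libraries, and 2.83% and 3.36% without PBS replicate 4. With all libraries, ITGB5 had a log2 fold change of 0.42 and lost its call in 1 of 8 fits that left out 1 library, the fit without gluconate replicate 4, with p up to 0.0544 in limma. ITGAV had 0.45 and passed in 2 of 8, those without PBS replicate 1 or 4, with p up to 0.0976 in limma. ITGB1 had 0.25 and passed in 4 of 8, lost without PBS replicate 2 or 3 or gluconate replicate 2 or 3, with p up to 0.0634 in limma. Without PBS replicate 4, ITGB5 had 0.30 and passed in 3 of 7 fits that left out 1 further library, with p up to 0.0943 in limma. ITGAV had 0.23 there and passed in 2 of 7, with p up to 0.123 in limma. ITGB1 had 0.22 there, and 0.34 without PBS replicate 1 as well, and passed in 2 of 7, with p up to 0.156 in limma. In this set ITGB5 was lost without PBS replicate 2 or 3 or gluconate replicate 1 or 4, ITGAV without PBS replicate 2 or 3 or gluconate replicate 2, 3 or 4, and ITGB1 without PBS replicate 2 or 3 or gluconate replicate 1, 2 or 3. Median-ratio scaling ended the ITGB1 call with all libraries, with p up to 0.0811 in limma, and quantile normalization or no filter ended it without PBS replicate 4, with p up to 0.0584 in limma. The ITGAV call ended with all libraries under no filter and in both sets with a replicate block, with p up to 0.0917 in limma. Calreticulin (CALR), the most abundant with a mean of 456 FPKM, had 0.01 with all libraries and -0.02 without PBS replicate 4, and it was -0.06 with all libraries after median-ratio scaling.

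Markers of other cell types were examined for the same contrast. Over all tested genes, 3.13% were higher and 1.49% lower with all libraries, and 2.83% and 3.36% without PBS replicate 4. These shares apply to every marker list below, and the marker lists too were chosen with earlier results known. Among fibroblast and mural markers, 2 of 13 tested were higher in both fits, SPARC and TAGLN, a smooth-muscle actin-binding protein that cultured and mesenchymal tumor cells also express. TAGLN was 33.9, 17.7, 14.4 and 7.18 FPKM in PBS replicates 1 to 4 and 25.6, 37.2, 41.9 and 53.5 FPKM in gluconate replicates 1 to 4. Gluconate replicate 1 lay under PBS replicate 1, and the log2 fold change of TAGLN was 1.27 with all libraries and 0.89 without PBS replicate 4, the latter a call lost without PBS replicate 2 or 3 with p up to 0.0537 in limma. COL1A1 was 121, 176, 140 and 41.4 FPKM in PBS replicates 1 to 4 and 155, 169, 182 and 174 FPKM in gluconate replicates 1 to 4, and its log2 fold change was 0.69 with all libraries and 0.24 without PBS replicate 4.

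Among 8 tested genes of the epithelial and OVCAR8 tumor list, which include VIM, CDH2 and WT1, 1 was higher in both fits, KRT7, a keratin of simple epithelia, at 0.73 with all libraries and 0.48 without PBS replicate 4. The keratins KRT8 and KRT18 went the other way, at -0.20 and -0.33 with all libraries and -0.21 and -0.31 without PBS replicate 4. The median of the 8 genes was 0.07 with all libraries and -0.06 without PBS replicate 4. From all 8 libraries the KRT7 call was lost without gluconate replicate 3 or 4, with p up to 0.0535 in limma. The call without PBS replicate 4 was lost without PBS replicate 2 or 3 or gluconate replicate 3 or 4 as well, or with a replicate block, with p up to 0.113 in limma and a value of 0.28 without PBS replicates 3 and 4. VIM had 0.07 with all libraries, 0.19 without PBS replicate 4 and -0.07 without PBS replicate 3. Of 4 tested mesothelial markers, 0 passed with all libraries and LRRN4 was at -0.48 with all libraries and lower without PBS replicate 4, at -0.59, a call lost without PBS replicate 2 or 3 with p up to 0.0607 in limma and a value of -0.37 without PBS replicates 3 and 4. With all libraries, LRRN4 newly passed with median-ratio scaling, quantile normalization or weighting by depth, with p down to 0.0165 in limma. It also passed in 2 of 8 fits that left out 1 library, those without PBS replicate 1 or 4. MSLN, the most abundant mesothelial marker, averaged 129 FPKM and had 0.24 in both fits. CALB2 had 0.80 with all libraries and 0.39 without PBS replicate 4, while WT1 had -0.67 and -0.14. MSLN, CALB2 and WT1 did not pass in either fit. The median of the 4 mesothelial markers was -0.12 with all libraries and 0.05 without PBS replicate 4.

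Of the granulosa and theca markers, 2 were tested, and AMH was at -0.18 with all libraries and 0.01 without PBS replicate 3. It passed in 1 of 8 fits that left out 1 library, the fit without PBS replicate 4, where it was lower, at -0.47. That call was lost with no filter, and with p up to 0.141 in limma in 5 of 7 fits that left out PBS replicate 2 or 3 or gluconate replicate 1, 2 or 3. AMH was at its lowest of the 8 libraries in PBS replicate 4, at 1.40 FPKM against 1.73 to 4.03 FPKM elsewhere. FOXL2, a granulosa cell transcription factor, lay between 1.56 and 3.60 FPKM in 7 libraries and was 21.5 FPKM in PBS replicate 4. WT1, a gene of the tumor and mesothelial lists, was 6.58 FPKM in PBS replicate 4 and between 1.07 and 1.82 FPKM elsewhere. The part of these markers in the low member values of PBS replicate 4 was not tested. The summed granulosa and theca level was 5.65, 6.90, 5.72 and 22.9 FPKM in PBS replicates 1 to 4 and 3.65, 5.54, 4.16 and 5.41 FPKM in gluconate replicates 1 to 4, with 5 of 7 genes at 0 in PBS replicate 4.

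Endothelial, myeloid, adipocyte, skeletal muscle and red blood cell markers gave 0 calls in either fit among 1, 2, 2, 1 and 0 tested genes. ESAM led the endothelial list with 6.12 FPKM, and PECAM1 did not exceed 0.563 FPKM. CD68 led the myeloid list with 24.7 FPKM, and PTPRC, the pan-leukocyte marker, did not exceed 0.0165 FPKM. LPL led the adipocyte list with 7.96 FPKM, DES the muscle list with 2.13 FPKM and HBA1 the red cell list with 0.0679 FPKM. The summed adipocyte level lay between 6.71 and 9.72 FPKM in 7 libraries and was 14.5 FPKM in PBS replicate 4, where LPL gave 12.2 FPKM and PPARG 2.29 FPKM of it and PLIN1, FABP4 and CIDEC, 3 of the 5 genes, were at 0. Its part in the member values was not tested.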

How the data were processed

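The authors deposited FPKM values (fragments scaled by gene length and by library depth) for 8 tumor libraries and 24196 gene symbols. Build GRCh38 is named in the submitters' processing notes, while the aligner, counting tool, annotation and any removal of mouse-derived fragments are not given in the sources used here. Columns marked C were taken as PBS and those marked T as gluconate, because the study plots gluconate against PBS as T over C and no other groups have 4 libraries. The headers do not spell this out, and every direction rests on it.

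From these values, whole fragments were recovered for 21898 genes, with 99.8% of values within 0.01 of a whole number. They gave the depth and 95% Poisson intervals. Gluconate was compared with PBS by limma 3.58.1 in R 4.3.3, two-sided, on log2(FPKM + 0.1) for 12486 genes with a mean of at least 0.5 FPKM, with Benjamini-Hochberg adjustment over all of them. A fold change on this scale understates the change of low genes. The fit was repeated on 7 libraries without PBS replicate 4. The fit was first run on simulated data with larger changes than those of the members and equal gene shares within each group. That run does not show how the fit performs on differences of the sizes reported here. Tables and plots were made in Python 3.11.15 with numpy 2.4.6, scipy 1.17.1, pandas 2.3.3 and matplotlib 3.10.9. Sequences came from RefSeq (GRCh38.p14) and gene positions from GENCODE 29.

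Named genes were all 10 members. From each of 14 lists they were the genes at an unadjusted p under 0.05 without PBS replicate 4, at most the 5 lowest p in each direction, and the most abundant gene. The 5 genes most correlated with SPARC were named for each library set. Genes named in addition, such as COL1A1, COL1A2, THY1, CSPG4, IGFBP7, NID2, P4HA2, PPARG, KRT8, KRT18, CALB2, PAX8, PECAM1 and PTPRC, were chosen after their values were seen. The members and lists were chosen with earlier results of these data known. Alternatives changed the pseudocount, filter, scaling, weighting by depth, replicate block and library set.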

Additional observations from a re-analysis of the deposited data

Results flagged for a closer look

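Among 128 groups of 4 libraries examined, 9 values lay far from the other 3 of their group by Dixon's criterion, which chance meets in about 1 in 20 groups. Of these, 4 were in PBS replicate 4, where the library held 3953205 fragments and 15514 genes above 0. In the same library FOXL2 was at 21.5 FPKM and the summed granulosa and theca markers were at 22.9 FPKM.

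FN1 was at 1082 FPKM in gluconate replicate 3, above 728 to 757 FPKM in the other gluconate tumors. POSTN was at 0.0469 FPKM in gluconate replicate 1, which rests on 8 fragments. ITGB1 was at 175 FPKM in PBS replicate 1, against 134 to 136 FPKM in the other PBS tumors. The summed matrix proteoglycans were at 135 FPKM in gluconate replicate 2, and the summed skeletal muscle markers were at 3.82 FPKM in gluconate replicate 4. The causes of these values were not tested.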

How the results depend on the processing

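Over single named genes, 1395 alternative values were computed, of which 1193 kept the direction and the side of the threshold, 147 no longer passed, 34 newly passed and 21 turned direction. For the members the numbers were 248, 212, 27, 7 and 2. With no filter, 747 genes were higher and 281 lower with all libraries, 550 were higher and 633 lower without PBS replicate 4, and 0 members passed in the latter fit, with p from limma of 0.0584 for SPARC, 0.0682 for THBS1 and 0.0537 for FBN1. Genes lower with all libraries numbered 350 with median-ratio scaling and 353 with quantile normalization, and the limma p of SPARC without PBS replicate 4 was 0.0596 after quantile normalization. The lowest value of 8 was in PBS replicate 4 for 8 members with either scaling. The share of all tested genes, 58.0%, is given for values without scaling only, so nothing is read from this count.

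With the replicate block, 303 genes were higher and 167 lower with all libraries, where SPARC still passed, THBS1 and FBN1 did not (limma p of 0.0663 and 0.0606) and TNC newly did (limma p of 0.0289). Without PBS replicate 4, 264 were higher and 303 lower, where 1 member passed (THBS1) and ESAM was -0.0666. SPARC and FBN1 did not pass there (limma p of 0.0967 and 0.0763). Deviations of equally numbered libraries correlated at -0.18, 0.08, 0.17 and -0.06 for numbers 1 to 4, and 2 of 4 libraries matched their own number best. With 4 numbers, this check cannot decide whether the numbers pair the tumors. In that block fit without PBS replicate 4, gluconate replicate 4 had no partner and did not contribute.

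Leaving out 1 library moved the counts with all libraries from 159 to 929 higher and from 108 to 419 lower, with 0 to 4 members. The higher count was 929 without PBS replicate 1, 666 without PBS replicate 2, 167 without gluconate replicate 3 and 159 without gluconate replicate 4. The lower count was 285 without PBS replicate 1, 419 without PBS replicate 4, 122 without gluconate replicate 3 and 108 without gluconate replicate 4. Starting without PBS replicate 4, the range was 207 to 773 higher and 285 to 672 lower, with 0 to 3 members. It reached 773 and 672 without PBS replicate 1, and the higher count was 207 without PBS replicate 3, 208 without gluconate replicate 3 and 228 without gluconate replicate 4.

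On the log2 scale, direction turned on leaving out a library with all libraries for VIM (-0.0687 to 0.194), DES (-0.560 to 0.0241), AMH (-0.474 to 0.0134) and CALR (-0.0252 to 0.0534, and -0.0582 with median-ratio scaling). Starting without PBS replicate 4, it turned for LUM (-0.0236 to 0.354), PDGFRB (-0.0488 to 0.228), ESAM (-0.0666 to 0.216), LPL (-0.148 to 0.0950), DES (-0.731 to 0.145), FOXL2 (-0.523 to 0.0576), CCN1 (-0.0817 to 0.147) and CALR (-0.0845 to 0.0334). The cause was not tested. Depth limits LUM, PDGFRB and FAP in PBS replicate 4, where they had 18, 29 and 20 fragments.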
